A study of Homo sapiens with 9 samples.

Results

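The data described here are the transcript levels of 7 matricellular genes, TGFBI, SPARC, TNC, POSTN, THBS2, SPOCK1 and SPON1, in HK-2 cells exposed to transforming growth factor β1 (TGFβ1). The genes were taken by name, through the probe sets annotated to their symbols, and are 7 of 11963 genes with a named probe set on the array. They had 13 probe sets in all; for each gene the brightest set on average was used, and the others served as a check.

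HK-2 is an immortalised line of human kidney proximal tubule epithelium. Cells of every group were kept in DMEM-F12 with EGF, hydrocortisone, triiodothyronine and an insulin, transferrin and selenium supplement. There were 9 arrays, 3 each of untreated cells harvested at 0 h, of cells given TGFβ1 for 24 h and of cells given it for 48 h. The experiment was repeated on different days with consecutive passages, and the triplicate plates of a time point were pooled on each day, so each array is 1 time point of 1 run and the replicate spread is a spread between runs of 1 cell line. The design text calls the controls vehicle and the sample labels call them untreated. The sources used here give no dose for TGFβ1. Because no untreated cells kept for 24 h or 48 h were analysed here, TGFβ1 and time in culture cannot be told apart. In RNA of whole cultures, a change in every cell and a change in the share of cells that express a gene cannot be told apart either.

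Matricellular proteins are secreted into the extracellular matrix, where they act less as scaffold than as regulators: they bind collagens, cell surface integrins, proteases and growth factors and change how cells attach and respond. TGF-beta is a classical inducer of several of them, and in the kidney many are low in healthy tubules and more abundant in fibrosis. TGFBI and POSTN are related proteins built from fasciclin domains. SPARC and the testican SPOCK1 share a calcium-binding domain, THBS2 and SPON1 carry thrombospondin repeats, and TNC is a large hexameric glycoprotein.

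In these cells the genes fell into 3 kinds. TGFBI, SPARC and SPOCK1 rose at 24 h and stayed up at 48 h, TGFBI by 6-fold and 6.16-fold, SPARC by 2.11-fold and 2.44-fold, and SPOCK1 by 2.45-fold and 2.99-fold. TNC and THBS2 were measured but passed the test at neither time. POSTN and SPON1 had no value above 2.21, where array medians were 2.2 to 2.23.

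Promoter sequence is shown for the 2 fasciclin genes, of which TGFBI rose most and POSTN was not detectable, and for SPARC and TNC, of which the first rose and the second did not. Each is the 250 bases before the gene's start in RefSeq on GRCh38.p14, read 5′ to 3′ on the gene's strand. The table used had entries for 5 of the 7 genes, and SPOCK1 and SPON1 were not among them. Capitals mark matches on either strand to 5 short motifs: CAGAC, the core of SMAD binding sites; TGANTCA, the AP-1 site; GGGCGG, the GC box; TATAAA, the TATA box; and CATTCC, the TEAD element. No matches overlapped each other.
TGFBI, chr5:136028738-136028987, plus strand: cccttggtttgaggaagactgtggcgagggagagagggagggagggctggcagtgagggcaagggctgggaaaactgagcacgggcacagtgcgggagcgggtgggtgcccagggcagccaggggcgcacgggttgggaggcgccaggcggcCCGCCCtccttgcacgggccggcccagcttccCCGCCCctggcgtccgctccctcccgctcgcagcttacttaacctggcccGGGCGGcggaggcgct
POSTN, chr13:37598769-37599018, minus strand: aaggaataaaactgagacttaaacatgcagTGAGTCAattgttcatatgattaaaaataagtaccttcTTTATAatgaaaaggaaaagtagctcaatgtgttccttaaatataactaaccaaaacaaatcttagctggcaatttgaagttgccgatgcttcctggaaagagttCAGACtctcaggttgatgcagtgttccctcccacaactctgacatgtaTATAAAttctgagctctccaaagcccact
SPARC, chr5:151686916-151687165, minus strand: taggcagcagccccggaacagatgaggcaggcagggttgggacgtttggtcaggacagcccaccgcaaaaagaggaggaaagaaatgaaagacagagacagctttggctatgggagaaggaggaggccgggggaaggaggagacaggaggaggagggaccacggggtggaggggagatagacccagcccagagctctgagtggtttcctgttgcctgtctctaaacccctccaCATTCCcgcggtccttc
TNC, chr9:115118158-115118407, minus strand: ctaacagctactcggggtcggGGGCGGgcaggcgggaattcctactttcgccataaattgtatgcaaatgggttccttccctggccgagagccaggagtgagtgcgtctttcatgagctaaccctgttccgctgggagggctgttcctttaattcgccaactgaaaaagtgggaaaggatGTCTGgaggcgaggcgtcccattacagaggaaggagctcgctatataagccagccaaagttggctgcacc

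The TGFBI window was 72.8% G and C, against a median of 58.0% over 27305 promoters of this length, and held 3 GC boxes, the first bases of which lay 98, 66 and 16 bases before the start. The POSTN window was 36.4% G and C and held 2 matches to TATAAA, 1 of them 29 bases before the start. The other lay on the opposite strand, 182 bases before it. An AP-1 site lay 220 bases and a SMAD core 77 bases before the POSTN start. The SPARC window (59.2%) held 1 TEAD element, 17 bases before the start, and the TNC window (54.8%) held 1 GC box and 1 SMAD core. Only exact matches were counted. The TNC window also holds the letters TATATAA near its end, which TATAAA does not match, so a TATA box there is not excluded. The THBS2 window, not printed, held 3 SMAD cores, 2 TEAD elements and 1 TATA box. Over all promoters of the table, 37.8% held the SMAD core, 6.6% the AP-1 site, 42.3% the GC box, 11.1% the TATA box and 11.9% the TEAD element. The SMAD core was present in the printed windows of TNC and POSTN and in neither of those of TGFBI and SPARC, which says only that these letters do not occur in those windows.

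Values are log2 values of 1 probe set, on which 1 unit is a doubling, and array medians lay between 2.2 and 2.23. Levels of different probe sets cannot be compared with each other, so each gene is compared with itself. A gene was tested where 3 or more of the 9 arrays had a value of 4 or above, which held for 4368 genes and 5 of the 7 members: TGFBI, SPARC, TNC and SPOCK1 on every array, and THBS2 on 5 arrays. Differences are given with the standard error (SE) of limma's fit over the 9 arrays, which is the same for every pair of groups, and with p-values adjusted by the Benjamini-Hochberg method over the 4368 genes, called under 0.05. At 24 h 3 of the 5 tested members were higher and 0 lower, where 2.63% of all tested genes were higher and 2.17% lower. At 48 h the same 3 members were higher and 0 lower, where 2.27% were higher and 2.17% lower. In the F test over the 3 groups these 3 passed, as did 4.12% of all tested genes. The median difference of the 5 members was 1.07 at 24 h and 1.29 at 48 h, against 0.02 over all tested genes at both times. The members, and the lists given below, were chosen with earlier results of these data known. Their shares and medians therefore do not test whether matricellular genes rise more often than others. With the run as a block in the fit the same 3 members were called, while the shares of all tested genes went up to 5.95% higher and 5.52% lower at 24 h and to 5.22% higher and 4.81% lower at 48 h.

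**Figure D1:**
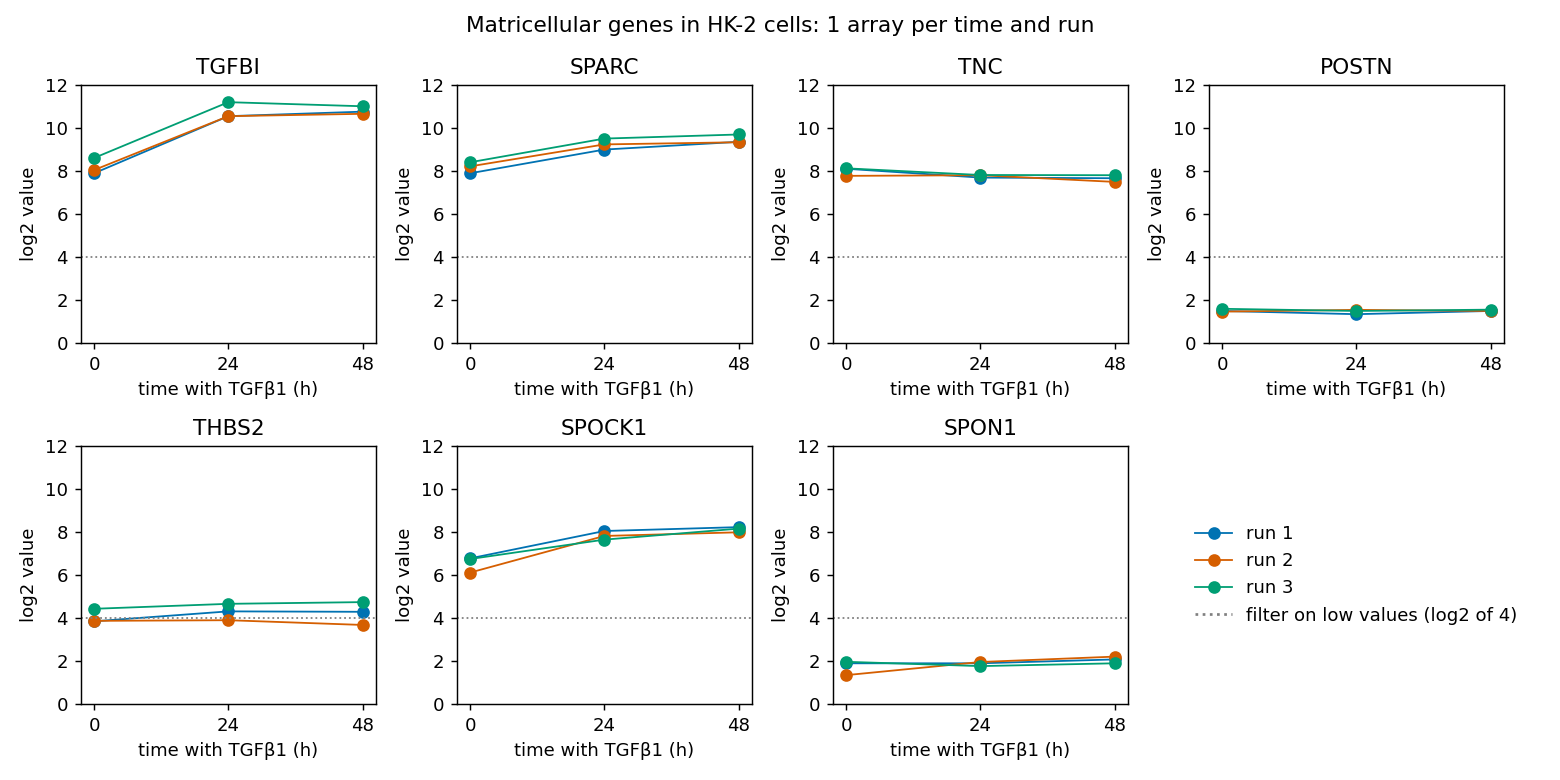
Log2 value of each of the 7 genes against time with TGFβ1 in hours, 1 point per array, with lines joining the 3 arrays of a run and a dotted line at the filter value of 4. TGFBI, SPARC and SPOCK1 climb between 0 h and 24 h in every run, TNC and THBS2 run nearly level, and POSTN and SPON1 lie below the dotted line throughout.

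TGFBI encodes a secreted protein of the fasciclin family, also called βig-h3, that binds collagens and integrins and was named for its induction by TGF-beta. Its single probe set read 7.90, 8.05 and 8.61 in the untreated arrays of runs 1, 2 and 3. It read 10.55, 10.55 and 11.20 at 24 h and 10.76, 10.66 and 11.01 at 48 h. Every treated array lay above every untreated one by a wide margin. The difference was 2.59 ± 0.237 (SE, n = 3 per group) at 24 h (limma adjusted p = 0.000472) and 2.62 at 48 h (adjusted p = 0.000338). Counted from the largest increase, TGFBI stood at place 9 of the 4368 tested genes at 24 h and at place 7 at 48 h.

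Set against the untreated array of its own run, TGFBI was higher by 2.66, 2.51 and 2.59 at 24 h in runs 1, 2 and 3, and by 2.86, 2.61 and 2.39 at 48 h. The runs thus differed from each other by little at 24 h, although run 3 sat above the other runs in level at each time. Time group accounted for 95.5% of the sum of squares of TGFBI over the 9 arrays, and run for 3.97%. From 24 h to 48 h the value moved by 0.21, 0.10 and −0.19 in the 3 runs, a mean of 0.04 with no common sign. The 95% confidence interval was −0.50 to 0.57 without a run term and −0.24 to 0.32 with the run as a block.

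SPARC, also called osteonectin, binds collagen and calcium and modulates cell adhesion and collagen assembly. Its main probe set read 7.90, 8.22 and 8.41 in untreated cells of runs 1, 2 and 3. It read 9.0, 9.24 and 9.51 at 24 h and 9.36, 9.34 and 9.70 at 48 h. The untreated arrays were the lowest 3 of the 9, and run 3 was the highest run at each time. The difference was 1.07 ± 0.189 (SE, n = 3 per group) at 24 h (limma adjusted p = 0.0114) and 1.29 at 48 h (adjusted p = 0.00461). Within runs SPARC rose by 1.10, 1.03 and 1.10 at 24 h, the narrowest spread of these genes where a rise was called, and by 1.46, 1.12 and 1.29 at 48 h.

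Its second probe set moved the same way with more spread, from 6.40, 6.59 and 6.87 in untreated cells to 6.97, 7.39 and 8.24 at 24 h and 7.79, 7.51 and 8.22 at 48 h. With every named probe set of the array tested, that set had differences of 0.91 ± 0.303 (limma adjusted p = 0.297; 0.0227 with the run as a block) and 1.22 (adjusted p = 0.118; 0.00482 with the block). The SPARC call at 24 h was kept without any of 7 of the 9 arrays in turn and was lost without either of the others: the adjusted p was 0.0521 without untreated replicate 1 and 0.0501 without the 24 h array of run 3. It was also lost without the whole of run 1, 2 or 3 (adjusted p = 0.115, 0.0938 and 0.0609). At 48 h the call was lost without run 1 (adjusted p = 0.105). The size of the difference moved little, from 0.94 to 1.2 at 24 h over these left-out arrays. Such fits held fewer arrays and no run term. Over all tested genes 210 were called at 24 h with 9 arrays, and 34 to 129 without 1 run. With 9 arrays and the run as a block, the main SPARC set had limma adjusted p-values of 0.000606 at 24 h and 0.00024 at 48 h.

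SPOCK1 encodes testican-1, a secreted proteoglycan with a SPARC-like calcium-binding domain that has been described as an inhibitor of cathepsin L and of the activation of a matrix metalloproteinase. Its single probe set read 6.77, 6.11 and 6.74 in untreated cells of runs 1, 2 and 3. It read 8.04, 7.81 and 7.64 at 24 h and 8.22, 7.98 and 8.15 at 48 h. No treated array overlapped an untreated one. The difference was 1.29 ± 0.199 (SE, n = 3 per group) at 24 h (limma adjusted p = 0.00573) and 1.58 at 48 h (adjusted p = 0.00196).

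Within runs SPOCK1 was less even than TGFBI or SPARC, with rises of 1.28, 1.70 and 0.90 at 24 h and of 1.45, 1.87 and 1.41 at 48 h. Run 2, which started lowest, rose furthest at both times. Each run had a higher SPOCK1 value at 48 h than at 24 h, by 0.18, 0.17 and 0.51. The mean step of 0.28 had a confidence interval of −0.16 to 0.73 without a run term (limma adjusted p = 0.781). With the run as a block the interval was −0.07 to 0.64 (adjusted p = 0.379). SPOCK1 was not called at 24 h without run 1 (adjusted p = 0.114) or without run 3 (adjusted p = 0.0665), nor at 48 h without run 1 (adjusted p = 0.0728).

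**Figure D2:**
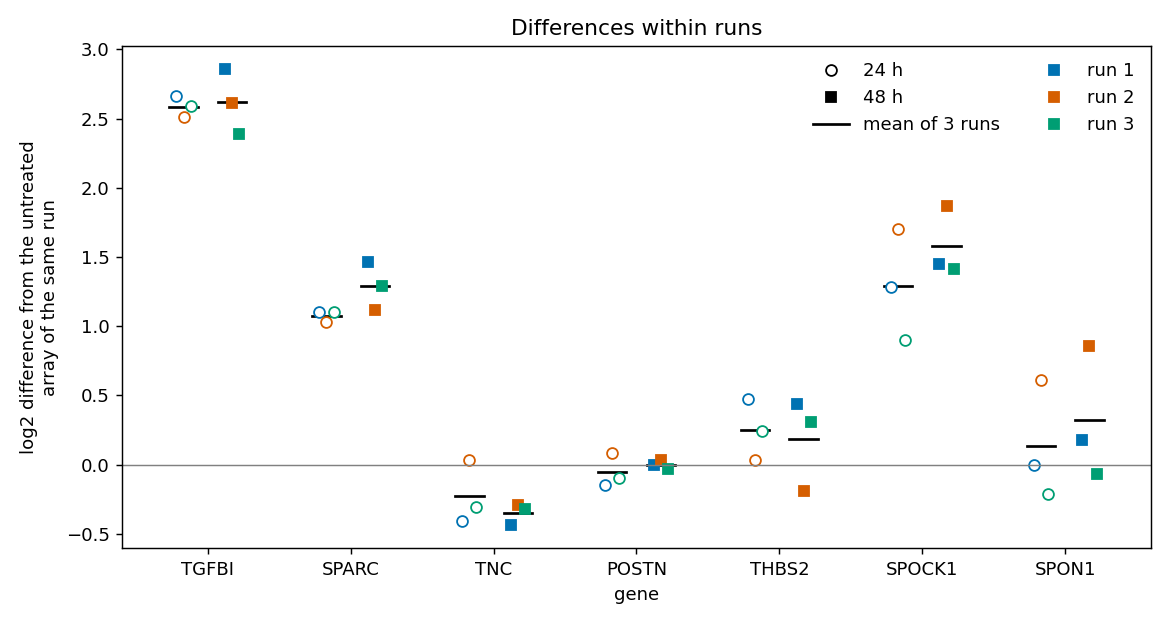
Log2 difference of each gene from the untreated array of the same run, with open circles for 24 h, filled squares for 48 h, colours for runs and bars for the mean of 3 runs. The 3 TGFBI points at 24 h lie between 2.51 and 2.66 and those of SPARC between 1.03 and 1.10, while those of SPOCK1 spread from 0.90 to 1.70.

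TNC encodes tenascin-C, a glycoprotein that binds fibronectin and loosens cell attachment and that appears in many wounds and scars. In untreated HK-2 cells it was already expressed, with values of 8.11, 7.78 and 8.13 in runs 1, 2 and 3. The values were 7.70, 7.81 and 7.82 at 24 h and 7.67, 7.50 and 7.81 at 48 h. The groups overlapped at both times, and each treated array lay below the untreated arrays of runs 1 and 3. The difference was −0.23 ± 0.145 (SE, n = 3 per group) at 24 h, with a 95% confidence interval of −0.56 to 0.10 (limma adjusted p = 0.511). At 48 h it was −0.35 with an interval of −0.67 to −0.02 (adjusted p = 0.315). Within runs TNC stood at −0.44, −0.29 and −0.32 at 48 h, lower in 3 of 3 runs, and the adjusted p with the run as a block was 0.123. Neither interval reaches an increase of the size seen for SPARC. The other TNC probe set lay between 1.14 and 2.46 on every array.

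THBS2 encodes thrombospondin 2, a matrix glycoprotein that limits the formation of blood vessels and binds proteases. It lay just at the filter, with values of 3.85, 3.87 and 4.43 in untreated cells of runs 1, 2 and 3. It read 4.31, 3.90 and 4.66 at 24 h and 4.29, 3.68 and 4.74 at 48 h. The groups overlapped widely, and run 3 held the highest value at each time. The difference was 0.24 ± 0.297 (SE, n = 3 per group) at 24 h, with an interval of −0.42 to 0.91 (limma adjusted p = 0.749), and 0.19 at 48 h, with an interval of −0.48 to 0.85 (adjusted p = 0.894). Run accounted for 81.4% of the sum of squares of THBS2 over the 9 arrays and time group for 8.24%. With the run as a block the interval was −0.08 to 0.56 at 24 h (limma adjusted p = 0.295) and −0.13 to 0.51 at 48 h (adjusted p = 0.49).

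POSTN encodes periostin, the fasciclin relative of TGFBI, which supports collagen cross-linking and is a common marker of fibroblast activation. Its brighter probe set read 1.51, 1.48 and 1.61 in untreated cells of runs 1, 2 and 3. It read 1.36, 1.56 and 1.51 at 24 h and 1.51, 1.51 and 1.57 at 48 h. The second probe set lay between 0.78 and 1.19. All these values are below the array median, where expression cannot be told from background, so POSTN was not detectable on these arrays in any group. In a fit without the filter its difference was −0.06 ± 0.104 at 24 h (limma adjusted p = 0.899).

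SPON1 encodes spondin 1, a secreted protein with thrombospondin repeats first known from the floor plate of the nervous system. Its brightest probe set read 1.90, 1.35 and 1.97 in untreated cells of runs 1, 2 and 3. It read 1.90, 1.96 and 1.77 at 24 h and 2.08, 2.21 and 1.90 at 48 h. The groups overlapped, and the highest value, 2.21, lay at the array median. The other 3 probe sets of SPON1 had means of 1.30, 1.26 and 1.25 over the arrays. In a fit without the filter the difference of SPON1 was 0.13 ± 0.171 at 24 h (limma adjusted p = 0.844) and 0.32 at 48 h (adjusted p = 0.645).

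**Figure D3:**
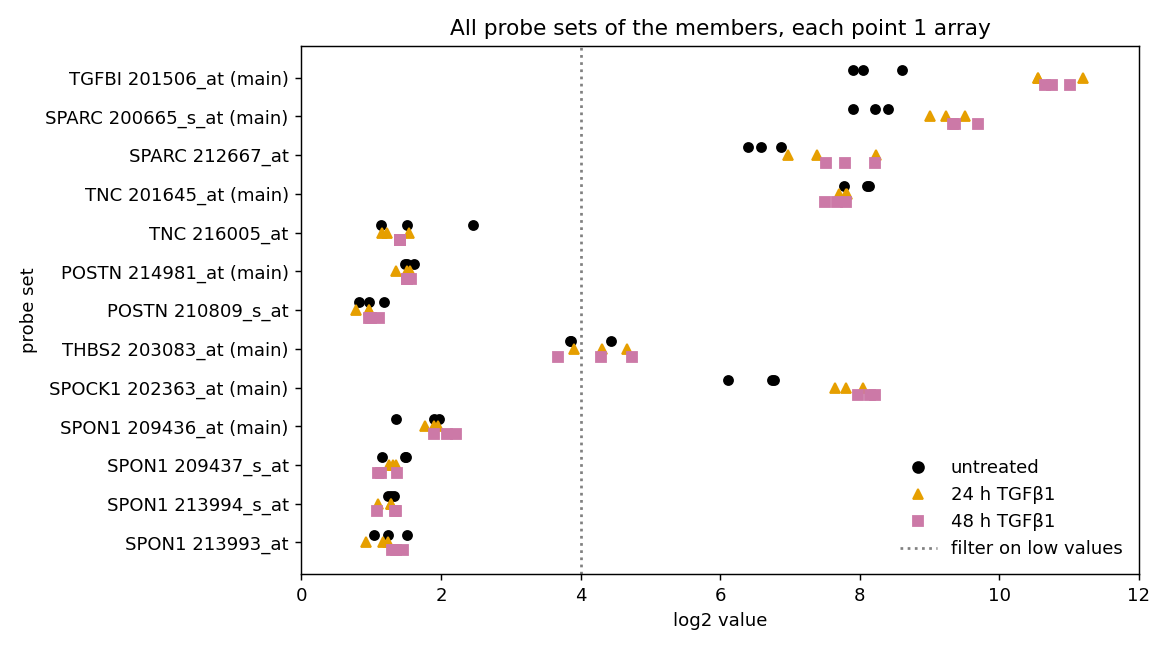
Log2 values of all 13 probe sets of the members, 1 point per array, with black circles for untreated cells, triangles for 24 h and squares for 48 h. Both SPARC probe sets shift to the right with TGFβ1, the dim TNC probe set stays at or below 2.46, and every POSTN and SPON1 probe set lies left of the dotted filter line at 4.

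None of the 5 tested members was called between 24 h and 48 h, which does not show that their levels were equal. SPARC had a step of 0.21 with a confidence interval of −0.21 to 0.64 without a run term (limma adjusted p = 0.793). With the run as a block the interval was −0.04 to 0.47 (adjusted p = 0.369). TNC and THBS2 had steps of −0.12 and −0.06. The share of all tested genes called in this comparison was 0.0%, that is 0 of 4368 in limma, and it was 0 with the run as a block as well. The unadjusted p was under 0.05 for 219 genes in limma and for 709 with the block. Some genes pass an unadjusted threshold without any difference. None of the 5 members was among those unadjusted calls in either fit. In the within-run values SPARC and SPOCK1 were higher at 48 h than at 24 h in 3 of 3 runs, and TNC was lower in 3 of 3.

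**Figure D4:**
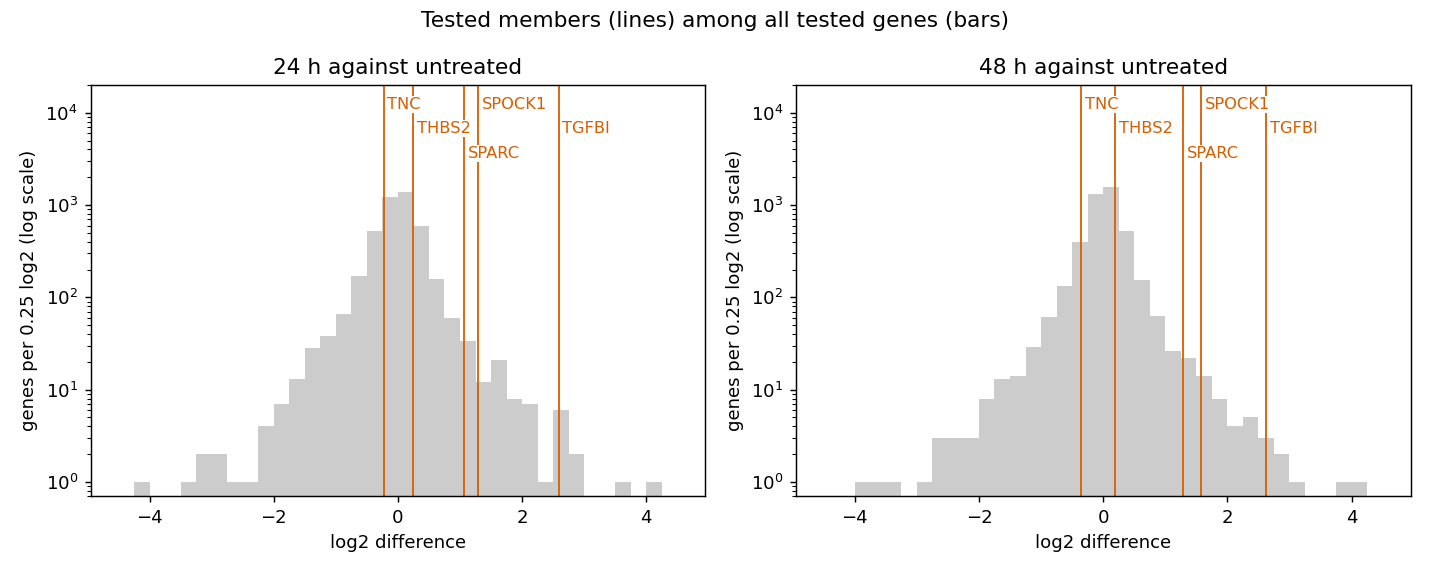
Number of tested genes per 0.25 log2 units of difference from untreated cells (grey bars, log scale) at 24 h and at 48 h, with lines at the 5 tested members. TGFBI lies in the sparse right tail at 2.59 and 2.62, SPARC and SPOCK1 at its base, and TNC and THBS2 within the central mass.

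The 3 genes that rose also differed in how the runs lay. Run 3 stood above the mean of all arrays by 0.35 for TGFBI, 0.24 for SPARC and 0.42 for THBS2, and by 0.02 for SPOCK1 and 0.11 for TNC. Run 2 stood below it by −0.38 for THBS2 and −0.20 for SPOCK1. These offsets were small against the rise of TGFBI and larger than the differences between group means for THBS2.

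The genes nearest to each risen member were taken as the 3 whose 6 within-run differences had the smallest root mean square distance from its own, in log2 units. Nearest to TGFBI were PMEPA1, an inhibitor of TGF-beta signalling, at 0.26, the focal adhesion gene TNS1 at 0.27 and the cytokine gene IL11 at 0.32. PMEPA1 stood at means of 2.69 and 2.48 at 24 h and 48 h, TNS1 at 2.72 and 2.51, and IL11 at 2.68 and 2.70. Nearest to SPARC were PRPS1, an enzyme of nucleotide synthesis, at 0.20, and the transcription factor genes KLF7 and BHLHE40, both at 0.22. Nearest to SPOCK1 were BCAT1, an enzyme of branched-chain amino acid metabolism, at 0.13, the N-cadherin gene CDH2 at 0.19 and the receptor gene IGF1R at 0.23. BCAT1 had the same order of runs as SPOCK1 at 24 h, with 1.20, 1.94 and 1.01, but not at 48 h, with 1.51, 1.97 and 1.52. Among the members, SPARC and SPOCK1 were 0.43 apart, and TGFBI was 1.43 from SPARC and 1.22 from SPOCK1. These distances share the untreated arrays and carry no test.

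Of 24 other matricellular genes listed, 21 had a named probe set and 5 were tested. THBS1 and CCN3 rose and 0 fell at both times, and the median difference of the 5 was 0.76 at 24 h and 0.60 at 48 h. Of all tested genes 2.63% rose at 24 h and 2.27% at 48 h. Thrombospondin 1, encoded by THBS1, can activate latent TGF-beta. THBS1 read 5.04, 5.70 and 6.18 in untreated cells of runs 1, 2 and 3, 6.52, 7.91 and 7.26 at 24 h and 7.13, 7.48 and 7.21 at 48 h. No treated array overlapped an untreated one, with differences of 1.59 ± 0.363 (limma adjusted p = 0.0373) and 1.63 (adjusted p = 0.0344). With every probe set tested, this THBS1 set had limma adjusted p-values of 0.0728 and 0.0653. A dimmer one had differences of 1.01 and 1.03 and adjusted p-values of 0.0258 and 0.0222. The remaining THBS1 sets were dimmer still and were not called. Their differences were 0.63 and 0.79 (adjusted p = 0.381 and 0.238), 0.06 and 0.08, and 0.21 and 0.18. Whether THBS1 and THBS2 differed in response was not tested.

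CCN3, a member of the CCN family of secreted regulators, read 6.65, 6.54 and 6.20 in untreated cells, 7.31, 7.22 and 7.12 at 24 h and 7.67, 7.48 and 7.34 at 48 h. Its difference was 0.76 ± 0.157 (limma adjusted p = 0.0264) at 24 h and 1.04 (adjusted p = 0.00547) at 48 h, with no overlap, and its second probe set had 0.93 and 1.26. CCN2, the connective tissue growth factor gene, had 1.18 ± 0.328 at 24 h (adjusted p = 0.0885; 0.0166 with the run as a block) and 0.60 at 48 h (adjusted p = 0.513). CCN1 was bright and level, with 0.17 and −0.03. SPP1, which encodes osteopontin, had means of 11.05, 10.67 and 10.74 and differences of −0.38 (adjusted p = 0.286) and −0.31 (adjusted p = 0.472). The 16 genes of this list that were not tested, among them COMP, SPARCL1 and FBLN5, had no array above 3.91.

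**Figure D5:**
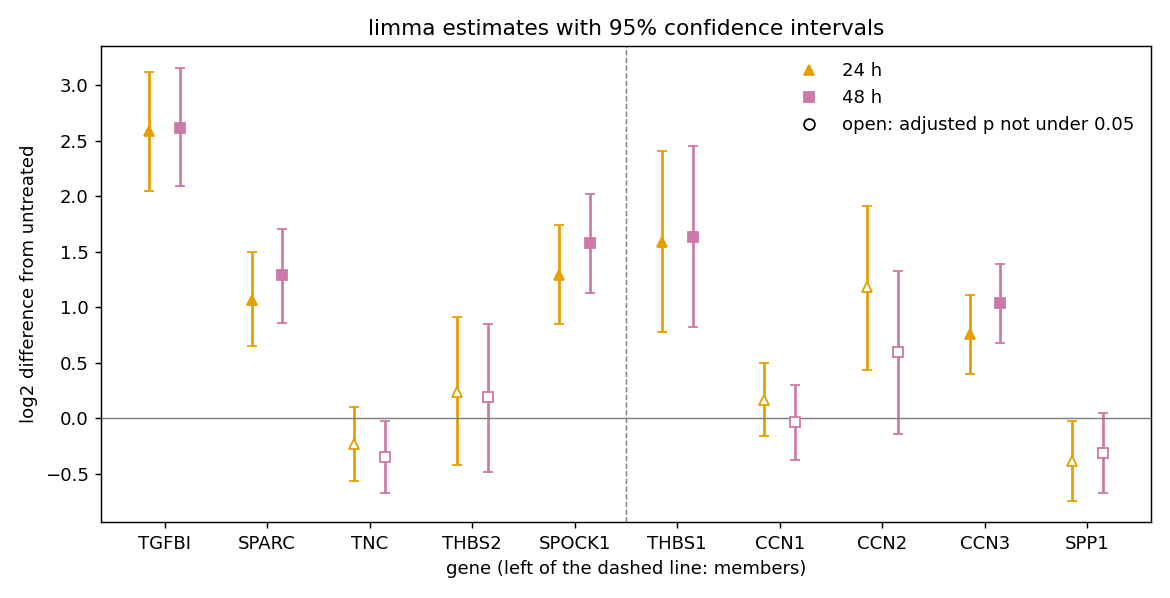
Log2 differences from untreated cells at 24 h (triangles) and 48 h (squares) with 95% confidence intervals of the limma fit, for the 5 tested members and, right of the dashed line, the 5 other tested matricellular genes; open symbols were not called. TGFBI has the highest estimates of the 10 genes, and the intervals of TNC and SPP1 lie mostly below 0.

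Of 22 listed receptors of matricellular proteins, chiefly integrins and syndecans, 12 were tested. At 24 h 0 rose and 0 fell in limma, and at 48 h 1 fell: SDC4, the syndecan-4 gene, at −0.85 ± 0.188 (adjusted p = 0.0336). The median differences were 0.33 and 0.07, and 2.17% of all tested genes fell at each time. With the run as a block 1 rose and 2 fell at 24 h, where 5.95% of all tested genes rose and 5.52% fell. At 48 h 4 rose and 2 fell with the block, where 5.22% of all tested genes rose and 4.81% fell. The following were named after their values were seen: the risen ones at 48 h were ITGAV (0.70), ITGB1 (0.55), ITGB3 (0.80) and ITGA5 (0.80), which encode integrin subunits, and those lower were SDC4 and ITGA3 (−0.81). ITGA5 also rose at 24 h in that fit.

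Of 20 listed matrix partners that the members bind or act with, 7 were tested. At 24 h 3 rose and 0 fell: FBN1, the fibrillin-1 gene (1.59 ± 0.282, limma adjusted p = 0.0122), and the collagen genes COL4A1 (0.83, adjusted p = 0.0352) and COL6A1 (0.50, adjusted p = 0.0475). At 48 h FBN1 rose (2.34, adjusted p = 0.00162), and COL4A1 was at 0.76 (adjusted p = 0.0521). The median differences were 0.66 and 0.59, and 2.63% of all tested genes rose at 24 h and 2.27% at 48 h. With the run as a block 5 rose at each time, where 5.95% and 5.22% of all tested genes rose. They included LOX, a collagen cross-linking enzyme, at 1.56 and 1.68, and COL4A2 at 0.66 and 0.59, both named after their values were seen. In untreated cells FBN1 read 3.61, 2.56 and 3.78 and LOX 2.49, 2.72 and 3.66, all below the filter value of 4. Both genes passed the filter only through treated arrays. Genes that enter this way can hardly be called lower, so the rises of FBN1 and LOX do not count as support for this list. COL1A1 and COL3A1, fibrillar collagens to which SPARC and TGFBI bind, were below the filter on every array.

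Of 19 listed proteases and inhibitors, 9 were tested. MMP1 (2.29 ± 0.444, limma adjusted p = 0.0201) and MMP9 (2.12 ± 0.412, adjusted p = 0.0202) rose at 24 h, and MMP1 rose at 48 h (3.22, adjusted p = 0.00306), when MMP9 was at 0.39 (adjusted p = 0.801). None fell, and the median differences were 0.10 and −0.03. MMP9 passed the filter only through its 24 h arrays (4.95, 4.33 and 6.09). It read 2.68, 3.37 and 2.96 in untreated cells and 3.25, 3.04 and 3.91 at 48 h. A gene that enters through its high group can hardly be called lower there, so the MMP9 call does not count as support for this list. Of all tested genes 2.63% rose at 24 h and 2.27% at 48 h. With the run as a block PLAT, the tissue plasminogen activator gene, fell at both times (−0.74 and −0.83) and was named after its values were seen. In that fit 5.52% and 4.81% of all tested genes fell. CTSL, the cathepsin L gene, whose product SPOCK1 can inhibit, was at 0.19 and −0.01.

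The identity of the cells was checked against listed markers. Of 15 kidney epithelial markers, 11 had a named probe set and 6 were tested: the keratins KRT8, KRT18 and KRT19, PAX8, CDH6 and EPCAM. PAX8 fell at both times (−0.60 and −0.81; limma adjusted p = 0.0233 and 0.00496), as did EPCAM (−1.27 and −1.17; adjusted p = 0.00116 and 0.00172), and 0 of the 6 rose. With the run as a block 1 also rose at each time, both named after their values were seen: KRT8 at 24 h (0.65; adjusted p = 0.064, 0.0123 with the block) and CDH6 at 48 h (1.33; adjusted p = 0.103, 0.00659 with the block). Of all tested genes 2.17% fell at each time without the block, and 5.95% and 5.22% rose with it. LRP2, CUBN, AQP1 and ANPEP, which define mature proximal tubule, had no array above 1.88, so these markers were not detectable. Of 7 fibroblast or mesangial markers LUM was expressed, at means of 6.48, 6.11 and 6.82, and was not called, and the other 6 had no array above 3.23. The log2 values of those 7 markers added up to 17.5 to 19.5 in untreated cells, 18.4 to 20.9 at 24 h and 18.9 to 19.9 at 48 h. Such a sum is not a level of expression, because it gives markers below the filter the same weight as LUM. COL1A1 had means of 1.73, 3.08 and 2.84, still below the filter, and was not tested. The 5 endothelial and 3 leukocyte markers with a probe set had no array above 2.46.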

How the data were processed

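Total RNA of pooled plates was hybridised to 1-colour Affymetrix arrays, 9 in all. The deposited log2 values, 1 per probe set, were made by the authors with GCRMA per the submitters' processing notes (the sources used here give no version or annotation); their log base was read from their range. They were used without further normalization. The number of arrays limits the precision. Of 22277 probe sets, 19064 had 1 symbol, 1043 several and 2170 none (62 controls included); symbols were updated by gene ID (19052 matched). Groups and run numbers came from the sample titles.

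limma 3.58.1 in R 4.3.3 (lmFit, eBayes) was fitted to all 9 arrays without a run term; the script was tested on simulated data. Run numbers paired the arrays: deviations from group means correlated at 0.378 to 0.662 within a number and −0.526 to 0.185 between numbers. The sample titles give a replicate number and no day. That arrays of the same number share a run was inferred from the number and these correlations. Blocked values are given where a call or count changes, and for some other comparisons. Alternatives were the replicate block, other filters, quantile normalization, other probe set rules, and leaving out arrays or runs. All 7 members are named, with tested matricellular genes, up to 4 genes per further list called without the block (others are said to be named after their values were seen), and the 3 genes nearest each risen member. Members and lists were chosen with earlier results of these data known.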

Additional observations from a re-analysis of the deposited data

How the results depend on the processing

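The members called, 3 at 24 h, 3 at 48 h, 3 in the F test and 0 for 48 h against 24 h, were the same in number with the replicate block, without a filter, with a filter at 5, after quantile normalization, with the mean of all probe sets and with every probe set tested. In the last of these each member was still counted by its main probe set. The second SPARC set was not called there (limma adjusted p = 0.297 at 24 h and 0.118 at 48 h). The block changed no call of a member, while the count over all tested genes went from 210 to 501 at 24 h, from 194 to 438 at 48 h and from 180 to 491 in the F test. Leaving out an array or a run gave 1 to 3 members at 24 h, at 48 h and in the F test, and 0 for 48 h against 24 h. The 1 was TGFBI, without run 1 at each and without run 3 at 24 h and in the F test. Over all genes, 1 array less gave 105 to 213 calls at 24 h and 111 to 206 at 48 h, and 1 run less gave 34 to 129 and 33 to 112; fewer arrays enter these fits. TGFBI stayed called in each of 18 alternatives, between 2.37 and 2.80 at 24 h and 2.48 and 2.84 at 48 h. With the mean of its probe sets SPARC had an adjusted p of 0.0497 at 24 h (limma). The sign of THBS2 at 48 h turned in 1 alternative (−0.07), and THBS2 was not tested with the filter at 5. Values near an array's median cannot be told from background, which limits POSTN and SPON1.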
